A study of Mus musculus with 4 samples.

Results

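The AP-2 transcription factor genes Tfap2a, Tfap2b and Tfap2c were examined in mouse mammary tumour cells that carry either a 211F form of the replication clamp PCNA or wild-type PCNA. These 3 genes were taken by name from a table of 50679 genes over all 4 libraries. Tfap2b was chosen by its measured values, near 0 in both WT libraries and above 12 FPKM in both 211F libraries, so its contrast between genotypes is a description and carries no test. Tfap2a and Tfap2c were listed with it by name, and their levels are given in the same way. FPKM is a level that divides a gene's fragments by its transcript length and by the library's mapped fragments, which allows comparison between genes. All 3 genes passed the filter on low values, which asked for 1 FPKM or more as the average of the 4 libraries. Tfap2b passed it only through its 211F values.

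The cells came from tumours of mice 10 weeks old that carried the polyoma middle T oncogene (PyMT), in 2 libraries with PCNA 211F (211F 1 and 211F 2) and 2 with PCNA WT (WT 1 and WT 2). All 4 libraries share the oncogene; the sources used here do not name the promoter that drives it. After dissociation of the tumours, an EpCAM antibody was used to capture epithelial cells, labelled as luminal adenocarcinoma, and the plating density was 100000 cells. The 2 libraries of a genotype are described as biological repeats. The sources used here do not say whether each came from its own animal, so part of the spread between libraries may be technical.

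AP-2 factors are DNA-binding proteins that bind as dimers to GC-rich sites through a basic region followed by a helix-span-helix domain, and the family members can pair with each other. Tfap2a and Tfap2b act in the embryo in neural crest, face and limb, and Tfap2b also in kidney and in the closure of the ductus arteriosus. Tfap2c acts in trophoblast and germ cells and, in human breast cells, helps to maintain luminal genes such as the oestrogen receptor. CITED proteins and the acetyltransferases CBP and p300 are coactivators of AP-2 factors, and KCTD1 and KCTD15 repress them.

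The family members are close relatives in the part that contacts DNA, so stretches of their coding sequence are shown to let a reader see what a sequencing read has to tell them apart. The stretch below is the 60 coding bases of Tfap2b best matched in Tfap2a and Tfap2c, from the GENCODE M21 transcripts. It was found by moving along Tfap2b codon by codon and placing the other genes without gaps. Matches between Tfap2a and Tfap2c were not scored. It codes for part of the basic region and crosses an exon junction. Capitals mark the 18 positions that are not the same in all 3 genes, 16 of which are the last position of a codon. The stretch holds coding bases 829 to 888 of Tfap2a (GRCm38 chr13:40721351-40723113, minus strand), 799 to 858 of Tfap2b (chr1:19226633-19228478, plus strand) and 970 to 1029 of Tfap2c (chr2:172553610-172554077, plus strand).
Tfap2a: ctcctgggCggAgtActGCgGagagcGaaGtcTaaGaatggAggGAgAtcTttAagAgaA
Tfap2b: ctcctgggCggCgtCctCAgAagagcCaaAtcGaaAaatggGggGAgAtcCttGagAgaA
Tfap2c: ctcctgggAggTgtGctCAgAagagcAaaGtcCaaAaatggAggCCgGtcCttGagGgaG
Of these 60 bases, Tfap2a and Tfap2c each shared 48 with Tfap2b. Over the whole coding sequence the aligned bases were identical at 71.5% between Tfap2a and Tfap2b, 68.1% between Tfap2b and Tfap2c, and 67.9% between Tfap2a and Tfap2c. The longest identical coding run was 29 bases between Tfap2a and Tfap2b, 17 between Tfap2a and Tfap2c and 11 between Tfap2b and Tfap2c. No stretch of 50 bases was shared by the annotated transcripts of any of these pairs, and only Tfap2a and Tfap2b shared stretches of 25 bases (5 of them).

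Tfap2b (ENSMUSG00000025927; chromosome 1, 19208914 to 19238576, plus strand) is annotated with 5 transcripts, of which 3 code for protein. The 250 bases before its RefSeq start site are shown because Tfap2b is the member that was near 0 in one genotype and expressed in the other. They lie at GRCm38.p6 chr1:19211804-19212053 on the plus strand, inside the annotated span of the gene and outside its GENCODE exons. Capitals mark the single match to any of 4 motifs searched on both strands, the E-box CANNTG.
Tfap2b: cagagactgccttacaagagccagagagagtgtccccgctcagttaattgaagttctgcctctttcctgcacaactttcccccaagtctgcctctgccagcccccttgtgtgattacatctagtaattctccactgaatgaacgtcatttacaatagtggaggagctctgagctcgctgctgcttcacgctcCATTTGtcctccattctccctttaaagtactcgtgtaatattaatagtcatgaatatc
An E-box stood in 72.3% of 32851 RefSeq promoter windows of 300 bases, so a match there is common. The other motifs searched were the AP-2 consensus GCCNNNGGC, found in 16.6% of windows, the TATA box TATAAA in 13.6% and the CCAAT box CCAAT in 37.4%. None of these 3 was in the 300 bases around the Tfap2b start or in the 300 bases around either listed Tfap2a start, where no E-box was found either. The absence of a match says only that these letters are not in the window.

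WT 2 stood apart from the other libraries in its epithelial markers, and 211F 1 shared part of its mesenchymal markers. The 7 epithelial markers summed to 3190 FPKM in 211F 1, 3300 in 211F 2 and 2820 in WT 1, but 6.59 in WT 2. The similar sums hide differences between single markers. Epcam was at 77.3 FPKM in 211F 1, against 450 in 211F 2 and 444 in WT 1. In the same order Cldn7 was at 5.07, 85.1 and 60.1 FPKM. Of these libraries 211F 1 was also lowest in Cdh1 and Krt18, intermediate in Krt8 and Krt14, and highest in Krt5 (1029 FPKM). The 9 fibroblast and mesenchymal markers summed to 2330 FPKM in 211F 1, 7.57 in 211F 2, 135 in WT 1 and 2810 in WT 2. In 211F 1 most of that sum was Vim (1856 FPKM) and Acta2 (442 FPKM), against 1634 and 95.8 FPKM in WT 2. Col1a1 was at 2.70 and Col1a2 at 0.286 FPKM in 211F 1, against 437 and 416 FPKM in WT 2. The epithelial label was thus not borne out in WT 2, in which Epcam was at 0.893 FPKM. The luminal part of the label was not tested in the other libraries. The basal keratin Krt14 was at 1297 FPKM in 211F 1, 1722 in 211F 2 and 1058 in WT 1. In the same order the luminal factor Gata3 was at 35.03, 11.5 and 30.5 FPKM. The pair with the highest Pearson r across 12767 genes, which are not independent replicates, was 211F 2 and WT 1 (0.920). Next came 211F 1 and WT 2 (0.852), so both of the most alike pairs crossed the genotypes. The 2 211F libraries had an r of 0.838 and the 2 WT libraries 0.748. In single-transcript genes, 91.2% to 93.3% of low values per library were whole fragments, within 0.1 of a fragment. If the authors did not rescale values between libraries, these steps put the depth relative to WT 1 at 1.10 for 211F 1, 0.933 for 211F 2 and 1.72 for WT 2. Markers of leukocytes (6 genes), endothelium (5) and melanocytes (6) summed to at most 5.95 FPKM in any library, and the melanocyte genes Tyr, Tyrp1, Dct and Mlana were at 0 in all 4.

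Tfap2b was at 32.6 FPKM in 211F 1 and 12.6 in 211F 2, against WT 1 at 0.0155 and WT 2 at 0.0167. Both 211F libraries were high and both WT libraries were near 0, and the groups did not overlap, as the choice of the gene required. WT 2 was low in Tfap2a (0.115 FPKM) and Tfap2c (0.112 FPKM) as well, and its epithelial markers summed to 6.59 FPKM. WT 1 was thus the only WT library with high epithelial markers, at a sum of 2820 FPKM. The part of these markers in the low Tfap2b value of WT 2 was not tested. With the longest and shortest coding transcripts (5863 and 1946 bases), the 211F values correspond to between 2450 and 7380 fragments in 211F 1 and between 808 and 2430 in 211F 2. The WT values correspond to between 1.06 and 3.2 fragments in WT 1 and between 1.97 and 5.92 in WT 2, again if values were not rescaled. Levels of 3 fragments or fewer are read here as near 0, and no fold change is given because the WT values are at or close to that limit. By level, Tfap2b ranked 3492 of 50679 genes in 211F 1 and 7000 in 211F 2, against WT 1 at 20561 and WT 2 at 20678. In bulk RNA, fewer cells that express a gene and less RNA per cell cannot be told apart.

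The 211F mean of Tfap2b was 22.6 ± 14.1 FPKM and the WT mean was 0.0161 ± 0.000837 (SD, n = 2 each). On the log2(FPKM + 1) scale the difference, 211F minus WT, was 4.40 ± 0.58 (SE). Each SE of a log2 difference given here is the moderated SE of the limma fit. It draws on the spread of all genes fitted and not on the 4 values of the gene alone. This scale adds 1 FPKM to each value and so understates the change of a gene near 0. In the most alike pair of libraries, 211F 2 minus WT 1, the difference was 3.75. The largest gap inside a genotype was 1.30 log2 units, between 211F 1 and 211F 2.

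**Figure D1:**
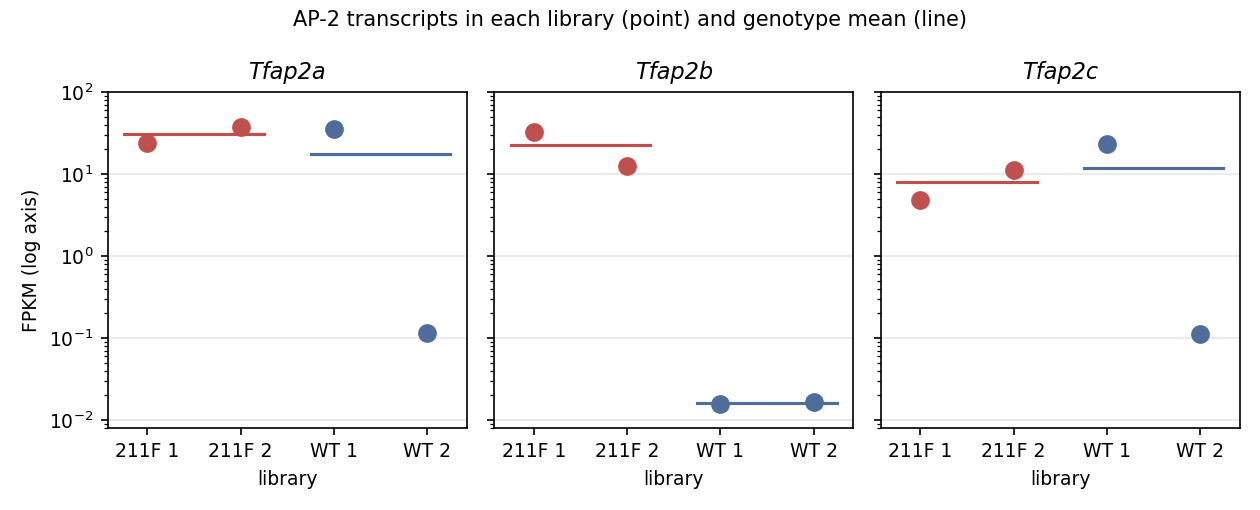
FPKM on a log axis of Tfap2a, Tfap2b and Tfap2c in each library (points; 211F in red, WT in blue), with the mean of each genotype as a line (n = 2 each). Tfap2b is at 32.6 and 12.6 FPKM in 211F and at 0.0155 and 0.0167 in WT, while Tfap2a and Tfap2c are low in WT 2 alone.

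The rule that picked Tfap2b was applied to the whole table to show where it stands. Its cutoff of 12 FPKM lies just under the lower 211F value of Tfap2b (12.6). The counts are thus a description that the choice of the gene fixed in part. Tfap2b was the single gene of 50679 with both WT values under 1 FPKM and both 211F values above 12, and 0 genes had the opposite pattern. With the 211F values required to be above 5 FPKM, 3 genes met it: Tfap2b, Fmnl1 (a formin that shapes actin) and Slfn3 (a Schlafen family gene with close paralogs). Only Abca1, a cholesterol exporter, met the mirror image at that level. The genes nearest outside the threshold were Slfn3, at 10.1 and 5.27 FPKM in 211F against 0.828 and 0.0490 in WT, and Fmnl1, at 12.9 and 5.26 FPKM in 211F against 0.104 and 0.165 in WT. These genes were named after their values were seen.

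**Figure D2:**
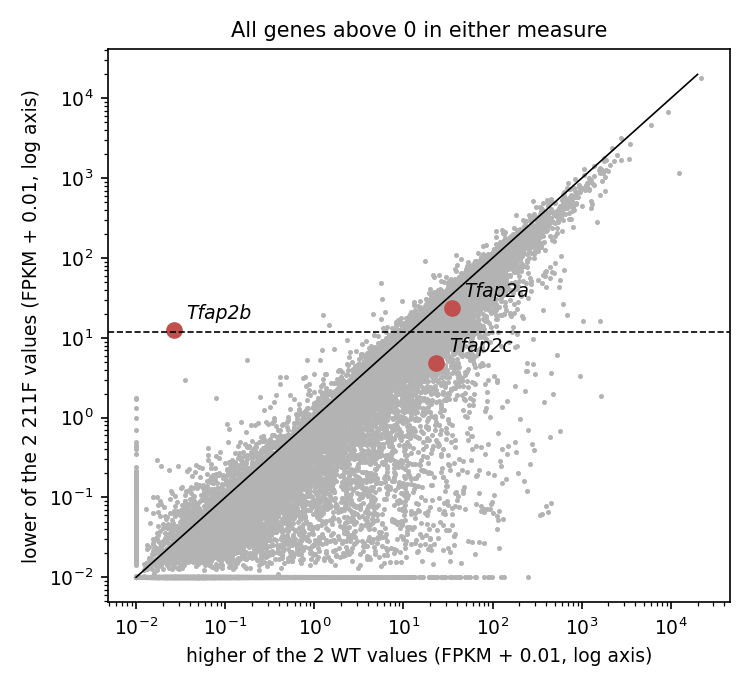
For every gene above 0 in either measure, the lower of the 2 211F values against the higher of the 2 WT values (FPKM + 0.01, both axes log; solid line, equal values; dashed line, 12 FPKM). Tfap2b lies at the upper left, as its choice required. Tfap2a and Tfap2c lie below the line of equality because their WT 1 values exceed their lower 211F values.

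Tfap2a (ENSMUSG00000021359; minus strand of chromosome 13, 40715302 to 40738376) was at 23.7 FPKM in 211F 1 and 37.3 in 211F 2, against WT 1 at 34.9 and WT 2 at 0.115. Both 211F libraries and WT 1 were high and WT 2 was low, so the groups overlapped. The order from the highest level was 211F 2, WT 1, 211F 1 and WT 2. The means were 30.5 ± 9.61 FPKM in 211F and 17.5 ± 24.6 in WT (SD, n = 2 each), and the log2 difference was 2.28 ± 1.80 (SE). Without WT 2 it was -0.22, so the positive sign rested on that library, whose epithelial markers summed to 6.59 FPKM; their part in the result was not tested. The 0.115 FPKM of WT 2 correspond to between 12.7 and 24.2 fragments, above the level read as near 0.

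Tfap2c (ENSMUSG00000028640; plus strand of chromosome 2, 172549593 to 172558622) was at 4.88 FPKM in 211F 1 and 11.3 in 211F 2, against WT 1 at 23.5 and WT 2 at 0.112. Both 211F libraries lay between the WT libraries. The means were 8.07 ± 4.52 FPKM in 211F and 11.8 ± 16.5 in WT (SD, n = 2 each), and the log2 difference was 0.70 ± 1.65 (SE). The mean in FPKM was thus lower in 211F while the difference of the log values was positive. Without WT 2 the log2 difference was -1.53 and without WT 1 it was 2.93, so its sign depended on which WT library was kept. In 211F 2 minus WT 1 it was -0.999. As for Tfap2a, the low value fell in the library with the lowest epithelial markers, and their part in the result was not tested.

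The other family members were lower. Tfap2d, the neighbour of Tfap2b, was listed at 0 in all 4 libraries. Tfap2e was at 0.0265 FPKM in 211F 1 and 0.0154 in 211F 2, against WT 1 at 0.0718 and WT 2 at 0, at most 5.27 fragments. Nearly all AP-2 transcripts in these cells were therefore those of Tfap2a, Tfap2b and Tfap2c.

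The make-up of the AP-2 transcripts differed between libraries of similar total. Summed over the 3 genes, the level was 61.2 FPKM in 211F 1, 61.2 in 211F 2 and 58.5 in WT 1, against 0.243 in WT 2. Tfap2b made up 53.3% of the sum in 211F 1 and 20.6% in 211F 2, against 0.0265% in WT 1 and 6.86% of the very low sum in WT 2. Tfap2a made up 38.8% and 61.0% in 211F, against WT 1 at 59.8% and WT 2 at 47.2%. Tfap2c made up 7.96% and 18.4% in 211F, against WT 1 at 40.2% and WT 2 at 46.0%. Tfap2b was thus the most abundant of the 3 in 211F 1 and the second in 211F 2. The ratio of Tfap2a to Tfap2c levels was 4.87 in 211F 1 and 3.31 in 211F 2, against WT 1 at 1.49 and WT 2 at 1.03, with no overlap between genotypes. In WT 2 it rests on few fragments, 12.7 to 24.2 of Tfap2a and 18.8 to 20.2 of Tfap2c if values were not rescaled. How many other gene pairs would separate in this way was not counted. The Tfap2a to Tfap2c ratio was looked at after the values were seen and carries no test. With 2 libraries on each side, the smallest p of an exact two-sided permutation test is 0.333.

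**Figure D3:**
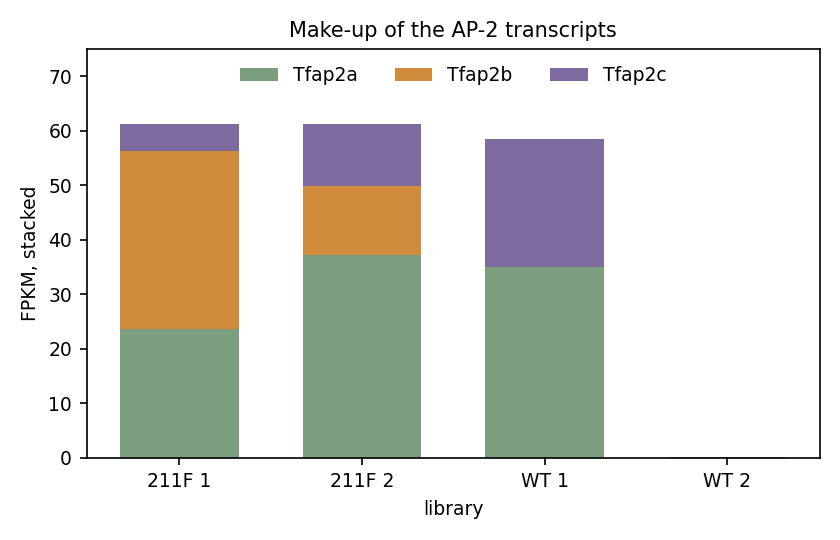
FPKM of Tfap2a, Tfap2b and Tfap2c stacked in each library. The stacks reach 61.2, 61.2 and 58.5 FPKM in 211F 1, 211F 2 and WT 1 and 0.243 in WT 2, and the Tfap2b part is visible in the 211F libraries alone.

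The nearest coding gene on each side of Tfap2b is Tfap2d, 42.6 kb away and at 0 in all libraries, and Pkhd1, the fibrocystin gene, 819 kb away. Pkhd1 was at 0.0760 and 0.00224 FPKM in 211F, against 0.00212 and 0 in WT. The noncoding gene Gm28340, 4.15 kb past the end of Tfap2b, was at 0 in all 4 libraries. Near Tfap2a, Gcnt2, a branching enzyme of glycans, was at 9.66 and 4.67 FPKM in 211F, against 7.58 and 6.48 in WT, and Ofcc1 was at 0 throughout. Near Tfap2c, Bmp7, a bone morphogenetic protein, was at 4.37 and 8.46 FPKM in 211F, against 5.94 and 0.0196 in WT. Fam209 on the other side of Tfap2c was at 0 and 0 in 211F, against 0.0550 and 0.0330 in WT. Exons of Tfap2a overlap those of 3 antisense genes by 73 to 380 bases. The one with the most overlap, Gm26688, was at 0.386 and 0.493 FPKM in 211F, against 0.516 and 0 in WT. The others, Gm47061 and Gm47067, have no entry among the 50679 genes. If strand was not used in counting, which the sources do not say, reads of Tfap2a and of these antisense genes cannot be told apart. No annotated gene overlaps Tfap2b or Tfap2c.

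The genes with a profile most like each member were found by the Euclidean distance between log2(FPKM + 1) profiles over the 4 libraries, each centred on its own mean, among 11379 tested genes. For Tfap2a they were Jup (plakoglobin, a junction protein), Syt8, Epha1 (an ephrin receptor), Kcnk1 (a potassium channel) and Cadm4 (an adhesion molecule), at distances of 0.34 to 0.49 log2 units. Jup was at 220 and 326 FPKM in 211F, against 380 and 11.6 in WT. For Tfap2c they were Plek2, Cadm1, Notch1 (a receptor of cell fate), Lgals7 (a keratinocyte galectin) and Irx2 (a homeobox factor), at 0.26 to 0.38. Notch1 was at 10.3 and 19.9 FPKM in 211F, against 56.2 and 1.52 in WT. Tfap2a and Tfap2c stood 1.66 apart, with Tfap2c at rank 111 of the genes nearest to Tfap2a and Tfap2a at rank 278 of those nearest to Tfap2c.

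Tfap2b had no such close neighbours, but it was chosen by these same values, so its distances are a description. Its 5 nearest genes, Fmnl1, Tubb3 (a neuronal-type beta tubulin), Adam12 (a membrane metalloprotease), Krt16 (a stress keratin of epidermis with close paralogs) and Slfn3, lay at 1.36 to 1.92. Krt16 was at 63.4 and 20.03 FPKM in 211F, against 4.59 and 0.0349 in WT. Tubb3 was at 19.6 and 32.2 FPKM in 211F, against 1.23 and 0.935 in WT. Tfap2a lay 4.35 from Tfap2b and Tfap2c 5.14, at ranks 3478 and 9793 of 11379. Which genes were nearest depended on the pseudocount: with 0.1 FPKM added in place of 1, 3 of the 5 remained for Tfap2b and 2 of 5 each for Tfap2a and Tfap2c. With 5 FPKM added, 2 of the 5 remained for Tfap2b, 3 for Tfap2a and 1 for Tfap2c.

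**Figure D4:**
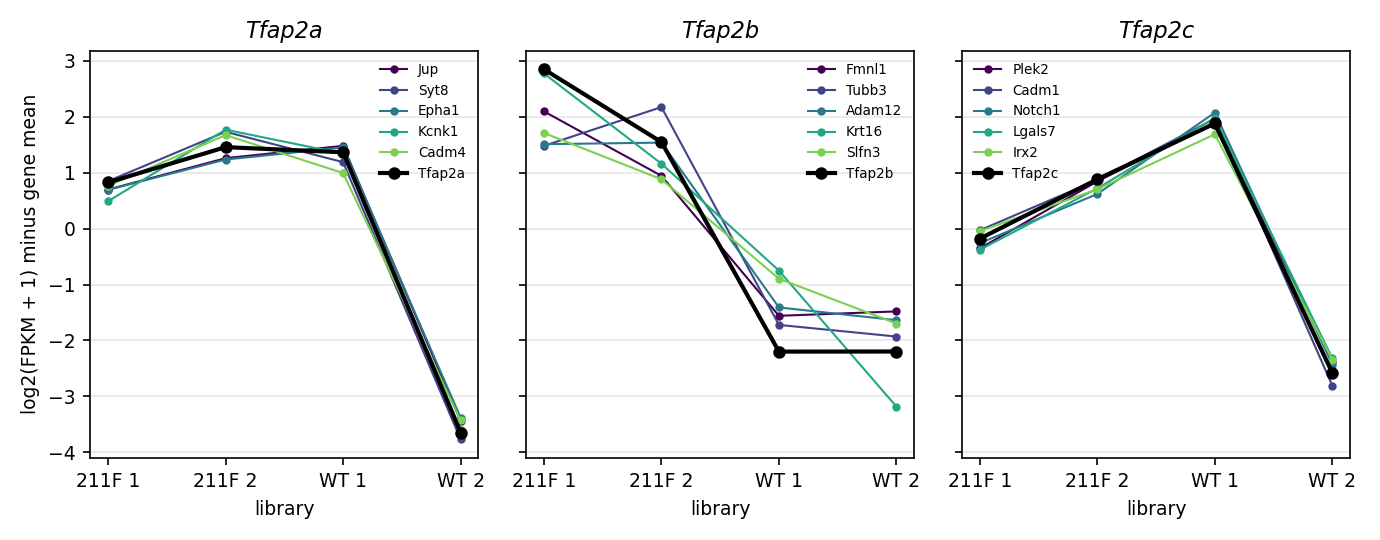
Log2(FPKM + 1) minus the gene's own mean over the 4 libraries, for each AP-2 gene (black) and its 5 nearest genes. The lines join libraries only to guide the eye. The Tfap2a and Tfap2c neighbours share the drop at WT 2. The Tfap2b neighbours are high in both 211F libraries, the pattern for which Tfap2b was chosen.

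In the fit over all genes, limma called 0 of 12767 genes (0%) at an adjusted p under 0.05, with 0.9999 as the lowest adjusted value. Before adjustment, 241 of the 12767 genes had a limma p under 0.05, 114 higher and 127 lower in 211F. This share is itself under 0.05, the share that such p-values would reach if no gene differed. The groups did not overlap in 26.8% of all genes tested (15.2% higher and 11.6% lower in 211F). Of the 3 AP-2 genes Tfap2b alone had groups that did not overlap, which its choice fixed. The pathway lists below are described against this background, and their members were not tested as sets. Adjusted p was 0.9999 for each tested gene named from the lists.

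Partners and regulators of AP-2 factors gave no called gene. Of 18 listed genes 17 were tested; 0 passed in either direction, 9 differences were positive and 8 negative, and the median was 0.00397 against 0.0285 for all genes tested. Groups did not overlap in 17.6% of the tested members (2 higher and 1 lower), below the 26.8% of all genes. Kctd15, a repressor of AP-2 activity, was at 23.7 and 27.2 FPKM in 211F, against 19.6 and 3.61 in WT, a log2 difference of 1.44 ± 0.81 (SE) that was 0.35 without WT 2. Yeats4, a chromatin reader that binds AP-2, was at 31.6 and 31.4 FPKM in 211F, against 22.6 and 31.4 in WT. Wwox, which holds AP-2 in the cytoplasm in human cells, was at 5.93 and 7.43 FPKM in 211F, against 9.81 and 7.44 in WT. Myc, which competes with AP-2 at some promoters, was at 103 and 67.6 FPKM in 211F, against 72.5 and 57.1 in WT. Kdm5b, a histone demethylase that acts with TFAP2C in human cells, was at 11.3 and 16.7 FPKM in 211F, against 25.05 and 14.7 in WT.

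The CITED coactivators were not alike. Cited4 was at 1.18 FPKM in 211F 1 and 37.1 in 211F 2, against WT 1 at 53.8 and WT 2 at 0.0609, so it was high in the 2 libraries with few mesenchymal markers. Cited2 was lowest in those 2 libraries, at 103 and 51.7 FPKM in 211F, against 53.2 and 114 in WT. Cited1 was at most 0.293 FPKM in any library and was not tested. These 3 were named after their values were seen. The acetyltransferase genes Crebbp and Ep300 were expressed in all libraries, at 13.5 to 34.9 FPKM.

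Reported target genes of AP-2 factors, mostly known from human cells, gave no called gene either. Of 25 listed genes 24 were tested; 0 passed in either direction, 14 differences were positive and 10 negative, and the median was 0.15 against 0.0285 for all genes. Without WT 2 the median was -0.20. Groups did not overlap in 37.5% of the tested members (5 higher and 4 lower), against 26.8% of all genes.

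Gpx1, a glutathione peroxidase reported as a TFAP2C target in human breast cells, was at 343 and 451 FPKM in 211F, against 191 and 254 in WT. Both 211F values exceeded both WT values, with a log2 difference of 0.83 ± 0.29 (SE). Cd44, a hyaluronan receptor that TFAP2C represses in human breast cells, was at 389 and 175 FPKM in 211F, against 126 and 139 in WT (0.97 ± 0.45). Cdkn1a, the p21 inhibitor, was at 12.4 and 5.41 FPKM in 211F, against 3.80 and 1.55 in WT (1.40 ± 0.60). Plat, tissue plasminogen activator, was at 19.1 and 7.68 FPKM in 211F, against 24.1 and 75.9 in WT (-1.73 ± 0.75). Mmp2, a gelatinase of stroma, was at 1.80 and 0.952 FPKM in 211F, against 4.36 and 202 in WT, so its difference of -3.82 ± 1.88 rested largely on WT 2 and was -1.20 without it. Esr1, the oestrogen receptor, was at 2.09 and 0.219 FPKM in 211F, against 2.34 and 4.96 in WT.

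The target genes Cdh1, Krt14 and Erbb3 were lowest in WT 2, as Tfap2a and Tfap2c were. Cdh1 and Krt14 are also among the 7 epithelial markers. Other target genes went the other way and were highest in WT 2: F2r (103 FPKM), Mt2 (169 FPKM), Vegfa (160 FPKM), and Mmp2, Plat and Esr1 given above. The list thus did not follow Tfap2a and Tfap2c as a whole. Cdh1 (E-cadherin) was at 102 and 202 FPKM in 211F, against 257 and 0.533 in WT. Krt14, a basal keratin, was at 1297 and 1722 FPKM in 211F, against 1058 and 2.41 in WT, a log2 difference of 4.64 ± 2.93 (SE) with no overlap. Erbb3, a receptor of neuregulins, was at 2.53 and 24.1 FPKM in 211F, against 26.7 and 0.0753 in WT. Erbb2 varied less, at 21.0 and 39.0 FPKM in 211F, against 36.0 and 16.4 in WT. Krt5 was low in 211F 2 as well: it was at 1029 FPKM in 211F 1 and 3.84 in 211F 2, against WT 1 at 245 and WT 2 at 1.23. Kit, a receptor that AP-2 activates in human melanoma cells, was at 0.0540 and 0.694 FPKM in 211F, against 17.6 and 0.0687 in WT. Igfbp5, which binds insulin-like growth factors, was at 6.78 and 0.193 FPKM in 211F, against 89.4 and 0.433 in WT. Ret, a receptor tyrosine kinase that TFAP2C activates in human breast cells, was the target gene lowest in WT, at 0.618 and 0.0803 FPKM in 211F, against 0.0314 and 0.0342 in WT, and was not tested. No target gene was near 0 in both WT libraries and above 1 FPKM in both 211F libraries. These genes were named after their values were seen.

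**Figure D5:**
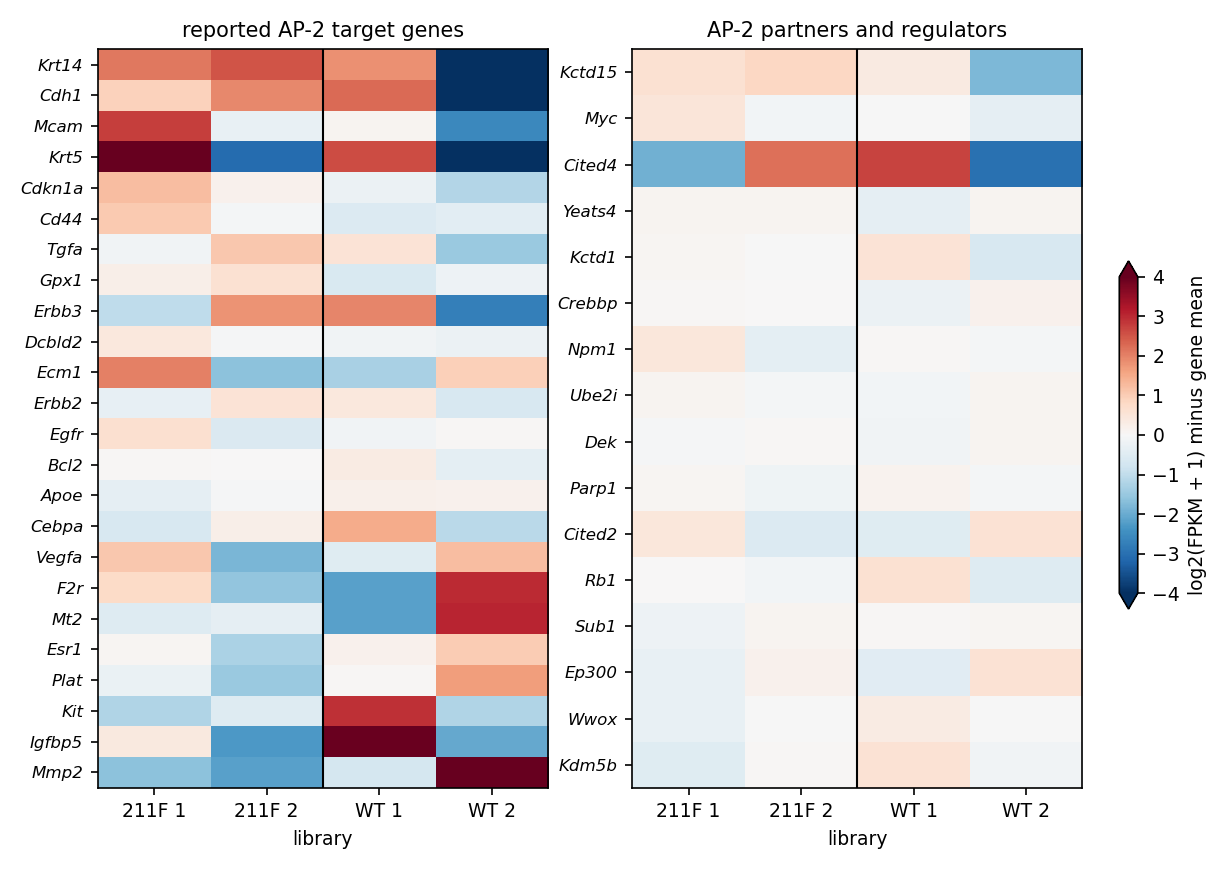
Log2(FPKM + 1) minus the gene's own mean in each library, for 24 tested target genes (left) and 16 of the 17 tested partners and regulators (right), ordered by the 211F minus WT difference from the highest at the top. Colours stop at 4 log2 units either way; the target genes vary mainly by library, with WT 2 apart, and the partners vary little except for Cited4 and Kctd15.

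The AP-2 consensus GCCNNNGGC was in a promoter window of 9 of the 20 target genes that had one in the RefSeq table (45.0%), against 18.5% of 27025 genes with a window. The target list was compiled in part from genes known to be bound, so its share is a description of the list. Among the target genes named above, Gpx1, Esr1, Kit and Igfbp5 had a match, and Cdkn1a, Cd44, Krt5, Krt14 and Erbb2 had none. Among partners and regulators it was in 3 of 11, Kctd15 included.

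Transcription factors of mammary epithelium were measured beside the AP-2 genes. The list shares Esr1 with the target genes and Sox9 and Sox10 with the neural crest list below. Of 21 listed genes 16 were tested; 0 passed, 10 differences were positive and 6 negative, with a median of 0.11 that was -1.29 without WT 2 and 1.73 without WT 1. Groups did not overlap in 31.2% of them (1 higher and 4 lower), against 26.8% of all genes tested. Gata3, a luminal factor that works at the same enhancers as AP-2 in human breast cells, was at 35.03 and 11.5 FPKM in 211F, against 30.5 and 1.38 in WT, and its direction turned without WT 2 (-0.57). Foxa1, the pioneer factor of oestrogen receptor sites, was at 0.797 and 1.235 FPKM in 211F, against 1.252 and 0.604 in WT; it was not tested and was named after its values were seen. Stat5a, which drives milk genes, was at 7.88 and 9.61 FPKM in 211F, against 29.3 and 18.6 in WT, a difference of -1.33 ± 0.35 (SE). Stat5b, its close paralog, was at 14.2 and 16.2 FPKM in 211F, against 23.6 and 17.8 in WT. Tbx3, a T-box factor of mammary development, was at 0.0595 and 1.03 FPKM in 211F, against 4.54 and 14.5 in WT (-2.66 ± 0.73). Ovol1, a zinc finger factor of epithelium, was at 1.98 and 4.56 FPKM in 211F, against 1.79 and 0.0524 in WT (1.25 ± 0.73).

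Factors that work with AP-2 in neural crest and face were measured because Tfap2b is best known there. Of 18 listed genes 11 were tested, and 3 were near 0 in all 4 libraries. Of the 11, 0 passed, 4 differences were positive and 7 negative, with a median of -0.28 that was 0.72 without 211F 2. Groups did not overlap in 9.09% of them (0 higher and 1 lower), against 26.8% of all genes tested. Named after their values were seen, Pax7 and Foxd3 were at 0 in all 4 libraries, and Sox10 was at 0.0297 and 0 FPKM in 211F, against 0.571 and 0.0376 in WT. Dlx1, a homeobox factor of the jaw, was at 9.50 and 4.48 FPKM in 211F, against 2.28 and 5.10 in WT. Its neighbour and relative Dlx2 was at 5.70 and 3.42 FPKM in 211F, against 0.120 and 3.82 in WT. Dlx5 was at 1.97 and 0.217 FPKM in 211F, against 4.74 and 0.820 in WT. Msx1, another homeobox factor of the face, was at 2.50 and 0 FPKM in 211F, against 1.61 and 10.6 in WT. Snai2, a repressor of epithelial genes, was at 27.04 and 17.2 FPKM in 211F, against 31.1 and 27.3 in WT.

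Markers of kidney tubule and of neurons, 2 other places where Tfap2b is known to act, were not high in both 211F libraries. The 10 distal nephron markers summed to 1.30 FPKM in 211F 1 and 0.364 in 211F 2, against WT 1 at 0.682 and WT 2 at 16.0, and Umod was at 0 in all 4. Most of the WT 2 sum was Pax8, at 15.2 FPKM. The 7 neuronal markers summed to 5.66 FPKM in 211F 1 and 95.5 in 211F 2, against WT 1 at 6.12 and WT 2 at 5.66. The sum in 211F 2 was mostly Stmn2, a microtubule regulator of neurons, at 92.3 FPKM. Among the 7 epithelial markers, all were at 1 FPKM or more in 211F 1, 211F 2 and WT 1. The part of any of these markers in the Tfap2b values was not tested.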

How the data were processed

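RNA was measured in 4 libraries, 2 of PCNA 211F and 2 of PCNA WT cells. The authors deposited FPKM values in a single table, with no read counts. The submitters' processing notes name TopHat2 2.0.13, DESeq2 and GRCm38 without saying what each was used for. The sources used here give neither the program behind the FPKM values nor its annotation or strand setting. Library kits marked strand, per the labels' protocols. FPKM sums ran from 544399 (WT 1) to 564977 (211F 1).

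Symbols were matched by identifier (50369 of 50679). Positions and transcripts are GENCODE M21 on GRCm38, promoters RefSeq on GRCm38.p6. What 1 fragment is worth was read from low values of 1971 single-transcript genes of at least 3000 bases. The 12767 genes averaging 1 FPKM or more were fitted as log2(FPKM + 1) with limma 3.58.1 in R 4.3.3, two-sided, with an intensity trend and Benjamini-Hochberg adjustment at 0.05 over all of them. The fit was also run on simulated data, whose outcome is not used here. With 2 libraries per genotype, 0 called genes does not show that no gene differs. Lists are described by counts and medians, with no set test.

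The AP-2 genes and the gene lists were chosen with earlier results of these data known. Named genes are the AP-2 family, the 6 tested members of each list with the smallest unadjusted p, the 5 genes nearest to each AP-2 gene (predicted, small RNA, mitochondrial and pseudogene symbols left out) and the nearest coding neighbours; others are said to be chosen after their values were seen. A few genes that this rule names are counted in their lists and not reported here. Alternatives were other pseudocounts, filters and scalings, no intensity trend, a replicate block and leaving out each library.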

Additional observations from a re-analysis of the deposited data

How the results depend on the processing

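limma called 0 genes in each of the 12 other settings and with the crossed block. The sign of the Tfap2b difference was fixed by the choice of the gene. Its size was 3.75 to 5.05 on leaving out single libraries, 7.46 with a pseudocount of 0.1, 2.36 with 5 and 5.19 with equal FPKM sums; the last 3 settings change the weight of the added constant. Leaving out a library gave -0.22 to 4.79 for Tfap2a and -1.53 to 2.93 for Tfap2c. Genes at an unadjusted p under 0.05 numbered 241 of 12767, a share that is itself under 0.05. The replicate block gave 142, testing every gene gave 745 (a larger table), and dropping single libraries gave 221 to 836, the last without WT 1. The labels do not say that replicate numbers pair libraries. Deviations from the genotype mean had r = -0.465 across genes between libraries of equal number, and with the crossed block, added after seeing the data, 520 genes were under 0.05 and 0 were called. Groups did not overlap in 3420 genes, in 6266 with no filter, and in 7371 to 9028 with 3 libraries (fewer samples).

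The median difference of partners and regulators was 0.00397, but -0.0695 with a pseudocount of 5, -0.0687 with quantile normalization and -0.101 in 211F 2 minus WT 1 alone, a pair chosen after seeing the data (-0.00629 to 0.0504 with 3 libraries). For target genes it was -0.330 in that pair (-0.196 to 0.520 with 3 libraries). For mammary factors it ranged from -1.29 to 1.73 and for neural crest factors from -0.771 to 0.717 with 3 libraries; the cause was not tested. Of 247 values of 21 named list genes, 2 turned direction, both when a WT library was left out: Dlx5 (-1.595 to 0.0626, positive without WT 1) and Gata3 (-0.569 to 3.16, negative without WT 2). None passed the threshold. Many of these values could not turn. The filters, the intensity trend and the replicate block leave a gene's difference unchanged. Where the groups did not overlap, leaving out a library cannot turn the sign. The table holds no counts, so levels under a few fragments are not resolved.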
